A study of Mus musculus with 27 samples.

Results

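The genes described are 9 precursors of neuropeptides in the mouse striatum: Pdyn, Penk, Tac1, Scg2, Cartpt, Crh, Cck, Npy and Sst. They were chosen by symbol out of 18193 gene symbols on the array, where a gene had several probe sets the brightest over the 27 arrays stands for it, and all 9 were among the 12017 genes tested. Ribosome-bound mRNA of D1 or D2 medium spiny neurons, the projection neurons of the striatum that carry the dopamine receptor Drd1 or Drd2, was isolated by translating ribosome affinity purification (TRAP). In this method the ribosomal protein L10a carries GFP in 1 neuron type (Drd1-TRAP or Drd2-TRAP), and anti-GFP antibodies pull down its ribosomes. All mice, male and 2 to 5 months old on a mixed C57BL/6 and 129/Sv background, were G9a fl/fl, that is, loxP sites flanked part of both copies of Ehmt2, the gene of the histone methyltransferase G9a.

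Mutants carried Drd1-Cre with Drd1-TRAP, or Drd2-Cre with Drd2-TRAP, and controls carried the same TRAP transgene without Cre, so loss of G9a cannot be told apart from presence of the Cre transgene. The promoter of the receptor gene drives both the tag and Cre, and Drd2 is known to be active in cholinergic interneurons too. The groups were D1 mutant cocaine (4 mice), D1 mutant saline (3), D1 control cocaine (4), D1 control saline (2), D2 mutant cocaine (4), D2 mutant saline (3), D2 control cocaine (4) and D2 control saline (3). Mice received 8 daily injections, with cocaine at 20 mg/kg/day, and tissue was collected 2 h after the final one. Levels are log2 values, and a level of 6 was taken as the floor of detection. The number of arrays limits the precision.

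Neuropeptides are cut from larger precursor proteins by convertases, stored in dense-core vesicles and released to act on receptors of nearby cells. In the striatum, D1 neurons are known for dynorphin (from Pdyn) and substance P (from Tac1), and D2 neurons for enkephalin (from Penk). Npy and Sst are known as products of a class of striatal GABAergic interneurons, and Cck of many cortical neurons.

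The targeted gene was lower in all mutants than in all controls of the same neuron type. Ehmt2 levels lay between 8.03 and 9.37 in D1 mutants and between 9.95 and 10.74 in D1 controls, and between 8.68 and 9.38 in D2 mutants and between 10.67 and 11.01 in D2 controls. Drd1 was at 12.12 or more on all D1 arrays and at 10.65 or less on all D2 arrays, and Drd2 was at 7.10 or less on D1 arrays and at 12.28 or more on D2 arrays. Of 6 cortical excitatory neuron markers on the array, Slc17a7 was below the floor on all arrays, but the mean of the list lay between 5.59 and 7.65 on D1 arrays and between 5.24 and 5.72 on D2 arrays. Of 10 GABAergic interneuron markers, Chodl, a marker of Sst-containing interneurons, was below the floor on all arrays. Of the 9 tested, 3 were higher in D1 neurons of both genotypes at an adjusted p under 0.05. These were Nos1 (0.37 in mutants and 0.32 in controls), Calb2 (0.47 and 0.49) and Crabp1 (0.81 and 1.05). Lhx6, Th and Elfn1 were lower in D1 mutants only. Over all genes, 16.6% were higher in D1 mutants and 11.9% in D1 controls. Of 6 cholinergic interneuron markers, Chat and Slc5a7 were below the floor on all arrays, but the mean of the list lay between 4.60 and 4.88 on D1 arrays, between 5.80 and 6.32 in D2 mutants and between 5.36 and 5.97 in D2 controls. The 3 tested, Lhx8, Ecel1 and Slc18a3, were lower in D1 neurons of both genotypes (Lhx8 -3.86 in mutants and -2.75 in controls), and Lhx8 (1.17, adjusted p = 5.79e-06) and Ecel1 (0.70, adjusted p = 0.00698) rose with G9a loss in D2 neurons. Oligodendrocyte markers also moved with genotype in D2 arrays, where 4 of 7 tested were higher in mutants, against 8.41% of all genes. Ttr, a choroid plexus transcript, was above 9.5 on 3 arrays.

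Of the 9 genes, 7 (all but Penk and Crh) had at least 1 start site in RefSeq's mouse promoter windows (GRCm38.p6, 250 bases before to 50 after the start), 8 windows in all. Both strands were searched for the cyclic AMP response element TGACGTCA, its core TGACG, which every full element also holds, and the AP-1 site TGANTCA. The full element was in the windows of Scg2, Cartpt and Sst and in 1.79% of all 32851 windows of the same length. The core was in the windows of Scg2, Cartpt, Sst, Tac1 and Cck and in 20.8% of all windows, and the AP-1 site was in none of the members' windows and in 7.81% of all. The 3 stretches around the full element, in capitals, are shown because Scg2 and Cartpt are the members called for genotype, and Sst carries the same 8 bases. With G9a loss Scg2 rose, Cartpt fell in D2 neurons in a call that several settings ended, and Sst was not called. A link between the element and genotype was not tested. They lie on the minus strand at chr1:79440047-79440134 (Scg2), chr13:99900748-99900835 (Cartpt) and chr16:23890845-23890932 (Sst).
Scg2: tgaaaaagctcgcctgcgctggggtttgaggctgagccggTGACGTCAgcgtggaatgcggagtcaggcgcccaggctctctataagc
Cartpt: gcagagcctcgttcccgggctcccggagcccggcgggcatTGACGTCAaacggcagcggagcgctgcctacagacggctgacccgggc
Sst: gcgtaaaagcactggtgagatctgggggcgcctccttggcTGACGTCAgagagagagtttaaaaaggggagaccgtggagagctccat
Between the element and the start lie 60 bases in Scg2, 104 in Cartpt and 40 in Sst. CpG dinucleotides per 300 bases numbered 16 in Scg2, 26 in Cartpt, 13 in Sst, 22 in Tac1, 24 in Npy, 10 in Cck and 11 and 5 in the windows of Pdyn, against a median of 7 over all windows. A match is a description of these letters and not of binding.

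The first comparison asked which precursors separate D1 from D2 neurons, in mutants and in controls. All 9 differed in both genotypes: Pdyn, Tac1, Scg2, Crh, Cck, Npy and Sst were higher and Penk and Cartpt lower in D1 neurons. Over all genes, 42.4% were called in mutants (16.6% higher, 25.8% lower) and 29% in controls (11.9% higher, 17.1% lower). A gene is said to be called when its adjusted p was under 0.05. D1 and D2 arrays did not overlap for 5 of the 9 genes in mutants and 6 of the 9 in controls, against 17.5% and 8.66% of all genes. In such ribosome-bound RNA pools a lower level of a transcript in every cell and fewer cells with that transcript cannot be told apart. Drd1 itself was at 9.71 to 10.65 on D2 arrays, above the floor. The part of RNA from other cells in the levels and folds of the members was not tested.

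**Figure D1:**
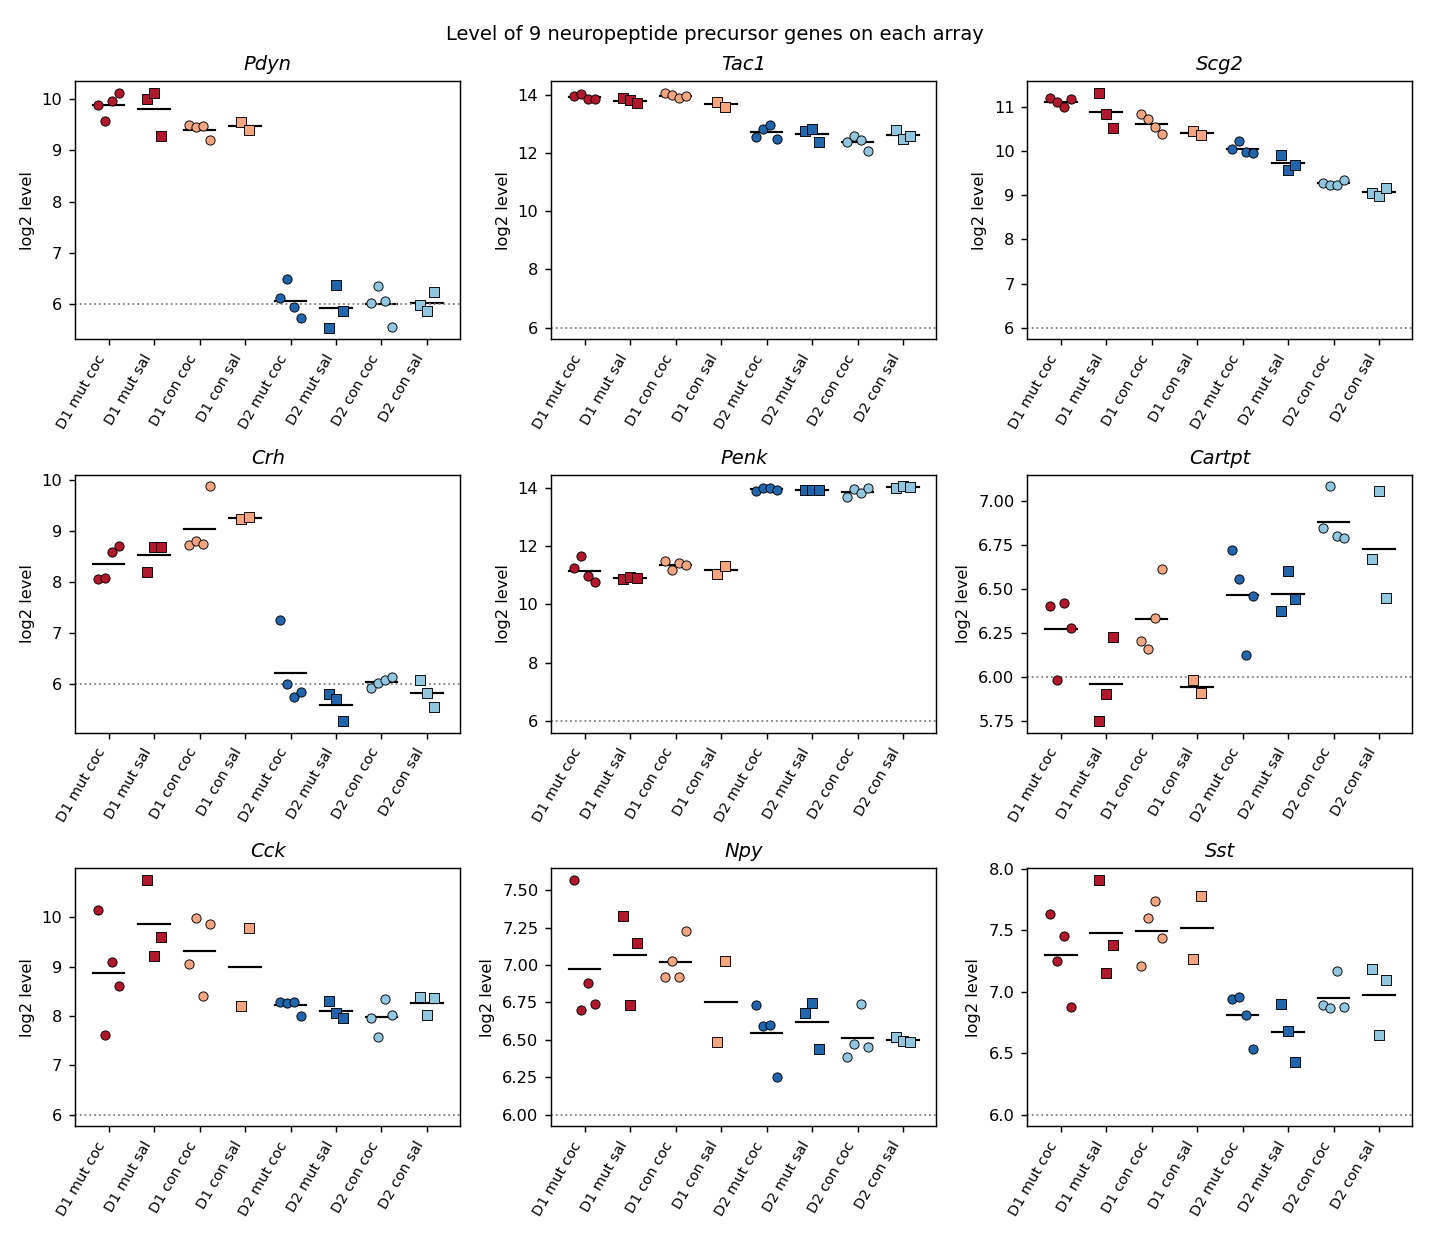
Log2 level (y axis, own scale for each gene) of the 9 precursors on each of the 27 arrays, by group along the x axis (mut, mutant; con, control; coc, cocaine; sal, saline). Circles are cocaine and squares saline arrays, bars are group means and the dotted line is the floor of 6. Pdyn, Crh, Tac1, Scg2 and Penk form separate D1 and D2 levels, while Cck spreads from 7.62 to 10.76 among D1 arrays.

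Among the genes of striatal projection neurons, Pdyn, the dynorphin precursor, was near the floor in D2 neurons. Its lowest, median and highest level was 9.27, 9.96 and 10.12 in D1 mutants, against 5.55, 5.95 and 6.49 in D2 mutants. In controls these were 9.20, 9.46 and 9.54 in D1 neurons, against 5.56, 6.04 and 6.36 in D2 neurons. No array of one neuron type entered the range of the other, and Pdyn was 14.3-fold higher in D1 mutants (log2 difference 3.84, SE 0.15, limma adjusted p = 2.12e-16) and 10.7-fold higher in D1 controls (3.42, SE 0.16, adjusted p = 1.33e-14). Pdyn was above the floor on 20 arrays, so that background limits these folds.

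Penk, the enkephalin precursor, showed the opposite order. It was 10.77, 10.95 and 11.65 at its lowest, median and highest in D1 mutants, against 13.87, 13.93 and 14.0 in D2 mutants. D1 controls had 11.03, 11.33 and 11.50, against 13.67, 13.98 and 14.05 in D2 controls. D2 levels ran from 13.67 to 14.05 across all 14 arrays, above every D1 array, and Penk was 7.46-fold lower in D1 mutants (-2.90, SE 0.09) and 6.36-fold lower in D1 controls (-2.67, SE 0.10, adjusted p = 1.62e-16). The D2 levels lie close below the highest value on each array (14.23 to 14.46), as do those of Tac1 in D1 neurons, and whether these probes were saturated was not tested.

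Tac1, the precursor of substance P, had a smaller gap on a high level on the arrays of both neuron types. It was 13.70, 13.84 and 14.03 in D1 mutants, against 12.38, 12.75 and 12.95 in D2 mutants. In controls it was 13.58, 13.91 and 14.06 in D1 neurons, against 12.05, 12.46 and 12.77 in D2 neurons. All D1 arrays lay above all D2 arrays, by 2.26-fold in mutants (1.18, SE 0.09) and 2.51-fold in controls (1.33, SE 0.10). A second probe set of Tac1 stayed below the floor on every array, and with the mean of both the values were 0.62 in mutants and 0.72 in controls.

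Scg2 encodes secretogranin II, a granin of dense-core vesicles and the precursor of secretoneurin. It was 2.17-fold higher in D1 mutants than in D2 mutants (1.12, SE 0.09, adjusted p = 9.69e-10) and 2.55-fold higher in D1 controls than in D2 controls (1.35, SE 0.10, adjusted p = 1.65e-10), with no overlap in either. Crh, the corticotropin-releasing hormone precursor known for its part in stress responses, was near the floor in D2 neurons and 5.82-fold higher in D1 mutants (2.54, SE 0.20) and 9.25-fold higher in D1 controls (3.21, SE 0.22). It exceeded the floor on 18 arrays. Cartpt, the precursor of the CART peptide, lay near the floor in D1 neurons, where levels ran from 5.75 to 6.42 in mutants and from 5.91 to 6.61 in controls. It was 1.28-fold lower in D1 mutants than in D2 mutants (-0.35, SE 0.11, adjusted p = 0.00934) and 1.59-fold lower in D1 controls than in D2 controls (-0.67, SE 0.11, adjusted p = 1.05e-04), and its D1 and D2 arrays overlapped in both genotypes. The call in mutants ended with the mean of the cortical markers as a covariate (-0.42, adjusted p = 0.0591).

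The difference of the D1 and D2 gaps between genotypes, which equals the difference of the G9a effects between neuron types, was not called for any of the 9 genes by limma (0.99% of all genes called). Crh alone had an unadjusted p under 0.05, against 12.3% of all genes.

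**Figure D2:**
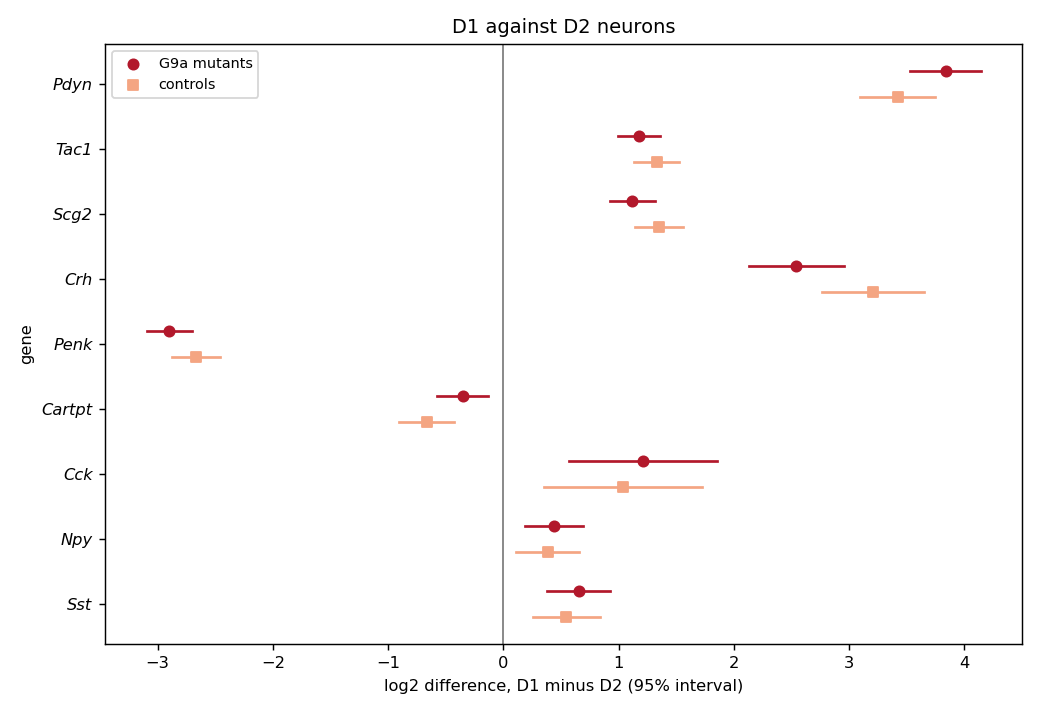
Log2 difference between D1 and D2 neurons (x axis, D1 minus D2) for each precursor (y axis) in mutants and controls, with the 95% interval of the fit across all arrays. Filled points are called, and all 18 are filled. Penk lies at -2.90 in mutants and -2.67 in controls, while Npy lies at 0.44 and 0.38.

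Cck, Npy and Sst were higher in D1 neurons by 0.38 to 1.21 on the log2 scale, with ranges that overlapped except for Sst in controls. Cck, the cholecystokinin precursor, was 7.62, 9.22 and 10.76 at its lowest, median and highest in D1 mutants, against 7.96, 8.27 and 8.30 in D2 mutants. D1 controls had 8.19, 9.42 and 9.98, against 7.58, 8.03 and 8.39 in D2 controls. The D1 arrays spread widely and reached into the D2 range in both genotypes, and Cck was 2.31-fold higher in D1 mutants (1.21, SE 0.31, adjusted p = 0.00281) and 2.05-fold higher in D1 controls (1.04, SE 0.33, adjusted p = 0.0201). Npy, the neuropeptide Y precursor, was higher by 0.44 in D1 mutants (SE 0.12, adjusted p = 0.00542) and by 0.38 in D1 controls (SE 0.13, adjusted p = 0.0297), with overlap in both. Sst, the somatostatin precursor, was higher by 0.65 in D1 mutants (SE 0.13, adjusted p = 3.49e-04), with overlap, and by 0.55 in D1 controls (SE 0.14, adjusted p = 0.00506), without. Leaving out D1 control saline replicate 2 ended the control calls of Cck (0.64, adjusted p = 0.241), Npy (0.25, adjusted p = 0.265) and Sst (0.42, adjusted p = 0.0768). The call of Npy in controls also ended without D1 control cocaine replicate 4 (adjusted p = 0.0577), D2 control saline replicate 2 (0.0516) or D2 control saline replicate 3 (0.0541).

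Cck and Npy correlated over the D1 arrays with the cortical excitatory marker level, the mean of Slc17a7, Neurod6, Neurod2, Tbr1, Nrn1 and Cux2. Neurod6, a cortical transcription factor, ranged from 2.99 to 7.93 on D1 arrays and did not exceed 3.49 on D2 arrays. Of the 4 tested markers, Neurod6 (2.78 in mutants, 2.43 in controls), Nrn1 (1.05 and 1.59) and Neurod2 (0.907 and 0.465) were called higher in D1 neurons. Over all genes, 16.6% were higher in mutants and 11.9% in controls. Cux2 was not called (0.112 and 0.032), and Slc17a7 and Tbr1 were not tested. Over the 13 D1 arrays the marker mean had a Pearson r of 0.963 with Cck (Spearman 0.956), 0.784 with Npy (0.835) and 0.467 with Sst (0.533). In permutation tests of 100000 resamples, 2-sided, p was 1e-05 for both coefficients of Cck, the smallest these resamples can give, with an adjusted p of 0.00018 over the 18 relations computed (9 genes in 2 neuron types). The adjusted p for Npy was 0.0138 (0.00594 for Spearman), and for Sst it was 0.388 (0.234), which missed the threshold. Without the 2 arrays farthest from the median marker level, r was 0.987 for Cck, 0.793 for Npy and 0.767 for Sst, and with group means taken out it was 0.962, 0.796 and 0.488. Over the 14 D2 arrays, where the marker mean spans a narrow range, r was 0.394, 0.244 and 0.0417, with adjusted permutation p of 0.491, 0.718 and 0.971.

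Other marker lists moved with these genes as well. Over the 27 deviations from group means, given as a description, Sst had an r of 0.638 with the astrocyte list and 0.565 with the GABAergic interneuron list, against 0.436 with the cortical list. Npy had 0.579 with the astrocyte list, 0.362 with the GABAergic interneuron list and 0.703 with the cortical list. Cck had 0.48 with the astrocyte list, 0.159 with the GABAergic interneuron list and 0.934 with the cortical list. The mean of the 9 astrocyte markers lay between 6.66 and 7.40 on all D1 and D2 mutant arrays and between 6.38 and 6.81 in D2 controls, and that of the 10 GABAergic interneuron markers between 6.16 and 6.74 on all arrays.

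With the marker mean as a covariate, the difference between D1 and D2 neurons was -0.28 for Cck in mutants and in controls, and 0.02 for Npy in mutants and 0.01 in controls. None of these passed. Sst was 0.37 in mutants (adjusted p = 0.152) and 0.29 in controls (adjusted p = 0.276). The marker mean was 5.72 or less, below the floor, on all D2 arrays and higher on most D1 arrays. The covariate therefore largely follows neuron type, and these values rest on extrapolation. Nrn1, 1 of the 6 markers, also rose with G9a loss in D2 neurons (1.44, adjusted p = 0.00191). On the 3 D1 arrays whose marker mean lay in the D2 range (D1 mutant cocaine replicate 2, D1 control cocaine replicate 3 and D1 control saline replicate 1), Cck was 7.62, 8.41 and 8.19, against 7.58 to 8.39 on D2 arrays. Npy was 6.70, 6.92 and 6.49 there, against 6.25 to 6.75 on D2 arrays. Sst was 7.25, 7.74 and 7.27, all above the 6.43 to 7.19 of the D2 arrays. The part of RNA from cortical cells beyond this covariate, and that of astrocyte or interneuron RNA, was not tested.

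**Figure D3:**
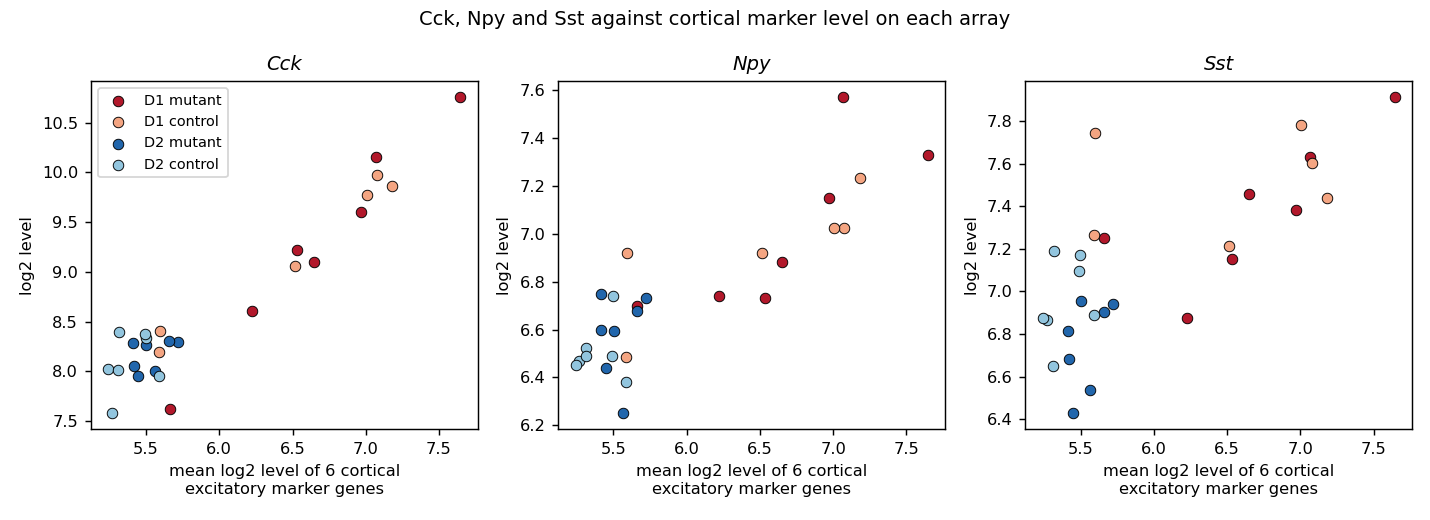
Log2 level (y axis) of Cck, Npy and Sst against the mean log2 level of 6 cortical excitatory marker genes (x axis) on each array, coloured by neuron type and genotype. The D1 arrays rise along the marker mean for Cck (r = 0.963 over 13 arrays), and the 14 D2 arrays stay at marker means of 5.24 to 5.72.

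The second comparison asked what the loss of G9a changed in each neuron type, and uses the same arrays as the first. Scg2 rose in both. Cartpt fell in D2 neurons and no other member was called. In D2 neurons 2 of 9 members were called, against 12.2% of all genes (8.41% higher, 3.82% lower), and in D1 neurons 1 of 9, against 4.22% (3.1% higher). At an unadjusted p under 0.05 the members numbered 3 in D2 neurons, where 25.6% of all genes did, and 4 in D1 neurons, where 13.3% did. Nothing particular to the members is read from these counts. The groups did not overlap for 1 member in D2 neurons (Scg2) and 1 in D1 neurons (Crh), against 4.75% and 2.44% of all genes.

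Scg2 in D2 mutants was 10.05, 10.22, 9.97 and 9.95 with cocaine and 9.91, 9.57 and 9.68 with saline. D2 controls had 9.28, 9.24, 9.24 and 9.35 with cocaine and 9.06, 8.99 and 9.15 with saline. All 7 mutants lay above all 7 controls, whatever the drug, and the level was 1.64-fold higher (0.71, SE 0.09, adjusted p = 4.55e-06).

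In D1 mutants Scg2 was 11.19, 11.10, 10.99 and 11.17 with cocaine and 11.32, 10.84 and 10.53 with saline. D1 controls had 10.85, 10.73, 10.54 and 10.39 with cocaine and 10.46 and 10.37 with saline. The lower mutants lay within the upper control range, and the level was higher by 0.49 (SE 0.10, adjusted p = 0.00256). The D2 mutants remained below all D1 arrays of either genotype. The effect in D2 neurons minus that in D1 neurons was 0.23 (95% interval -0.05 to 0.51, adjusted p = 0.535), so a difference between neuron types was not shown. Scg2 was called in both neuron types under all 41 other settings tried.

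Beside the rise of Scg2 in D2 mutants, 4 of 8 tested D1 neuron markers rose there too, against 8.41% of all genes. These were Drd1 (0.54), Isl1 (0.98), Zfp521 (1.04) and Slc35d3 (0.56). Of 6 tested D2 neuron markers, Upb1 (0.61) and Ptprm (0.55) rose and Drd2 (-0.49) fell in D2 mutants. Zfp521 (0.25) and Ptprm (0.82) also rose with G9a loss in D1 neurons. Pdyn in D2 neurons (-0.01, adjusted p = 0.963) was not called, and its levels overlapped between genotypes. The oligodendrocyte marker mean ran from 7.61 to 8.04 in D2 mutants and from 6.70 to 7.54 in D2 controls. With the glial marker mean as a covariate Scg2 remained called. Lhx8 and Ecel1, the cholinergic interneuron markers given above, rose in D2 mutants too. The deviations of Scg2 from group means had an r of 0.04 with the cholinergic list, 0.361 with the oligodendrocyte list and 0.339 with the D1 list. Deviations hold no difference between genotypes, so these r cannot speak to the rise. Apart from the glial covariate, the part of these markers in the rise of Scg2 was not tested.

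Cartpt in D2 mutants was 6.72, 6.56, 6.12 and 6.46 with cocaine and 6.37, 6.60 and 6.44 with saline. D2 controls had 6.84, 7.08, 6.80 and 6.79 with cocaine and 6.67, 7.06 and 6.45 with saline. The mutants lay lower with overlap, and the level was 1.26-fold lower (-0.33, SE 0.11, adjusted p = 0.0416). The D2 mutant levels (6.12 to 6.72) lie close above the floor of 6, which limits this fold. The call ended under 15 of the 41 other settings, among them the glial covariate (-0.27, adjusted p = 0.367) and leaving out any 1 D2 array other than mutant cocaine replicates 1 and 2, mutant saline replicate 2, control cocaine replicate 4 and control saline replicate 3. The values without 1 of these 9 arrays ran from -0.25 to -0.35. In D1 neurons Cartpt was -0.02 (95% interval -0.26 to 0.22).

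Crh in D1 mutants was 8.06, 8.07, 8.59 and 8.70 with cocaine and 8.19, 8.68 and 8.68 with saline. D1 controls had 8.71, 8.79, 8.74 and 9.87 with cocaine and 9.22 and 9.26 with saline. All mutants lay below all controls, but the closest pair differed by little, and the difference of -0.70 (SE 0.22, 95% interval -1.14 to -0.26) missed the threshold (adjusted p = 0.0686). Without D2 mutant cocaine replicate 1, an array of the other neuron type with a Crh level of 7.24, the adjusted p was 0.0117. With RNA quality, the 3' minus 5' difference of control probe sets, as a covariate it was 0.00372. Crh correlated with that measure over the 27 deviations from group means (r = 0.638), and higher values of the measure mean poorer RNA. D2 neurons gave -0.03 (95% interval -0.45 to 0.38), near the floor. Pdyn in D1 neurons was 0.40 (adjusted p = 0.215) and Penk -0.23 (adjusted p = 0.285). Penk in D2 neurons was -0.001 (adjusted p = 0.996). Tac1, Cck, Npy and Sst lay between -0.22 (Sst) and 0.19 (Tac1) in D2 neurons, with adjusted p of 0.185 or more, and between -0.12 (Sst) and 0.21 (Cck) in D1 neurons, with adjusted p of 0.766 or more. The effect in D2 neurons minus that in D1 neurons ran from -0.42 for Pdyn to 0.67 for Crh over the 9 members, with adjusted p of 0.348 or more.

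**Figure D4:**
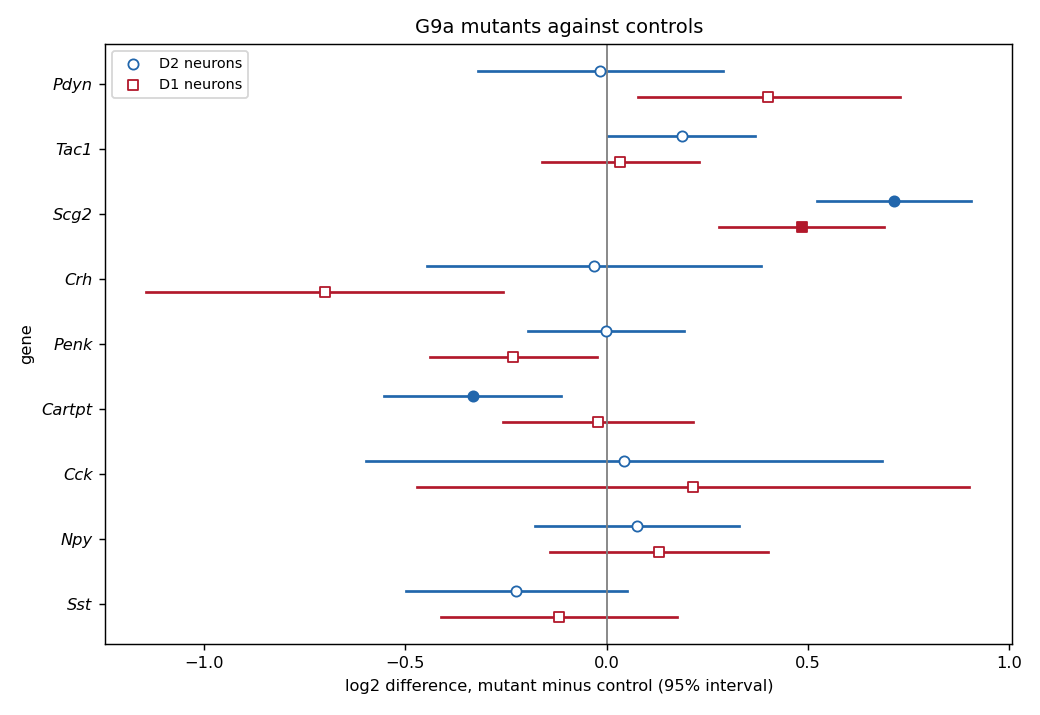
Log2 difference between mutants and controls (x axis, mutant minus control) for each precursor (y axis) in D2 and D1 neurons, with 95% intervals of the fit across all arrays. Filled points are called: Scg2 in D2 (0.71) and D1 neurons (0.49) and Cartpt in D2 neurons (-0.33). Crh in D1 neurons lies at -0.70 and is open.

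Other genes of the peptide pathway were counted from lists chosen with earlier results of these data known. Of 18 tested genes for peptide processing and dense-core vesicles, 2 rose and 1 fell with G9a loss in D2 neurons (median 0.08, against 0.02 over all genes) and 1 rose in D1 neurons (median 0.05, against 0.01). The shares over all genes were 8.41% higher and 3.82% lower in D2 neurons, and 3.1% higher in D1 neurons. Chga, the granin chromogranin A, averaged 10.4 ± 0.09 (SD, n = 4) in D2 mutants with cocaine and 10.32 ± 0.14 (n = 3) with saline, against 9.44 ± 0.26 (n = 4) and 9.65 ± 0.12 (n = 3) in D2 controls. It rose by 0.82 in D2 neurons (SE 0.09, adjusted p = 2.06e-07) and by 0.34 in D1 neurons (SE 0.10, adjusted p = 0.0375). The D1 call ended without any 1 D1 array other than mutant cocaine replicate 4, mutant saline replicate 3, control cocaine replicate 3 and control saline replicate 1, and the value was 0.26 (adjusted p = 0.297) without D1 control saline replicate 2. In D2 neurons Qpct, glutaminyl cyclase, which caps peptide ends, rose by 0.62 (adjusted p = 0.00728), and Baiap3, known for a part in dense-core vesicle traffic, fell by 0.60 (adjusted p = 0.0225). Both calls ended with the glial covariate (Qpct 0.32, adjusted p = 0.416, Baiap3 -0.49, adjusted p = 0.292). Baiap3's also ended without D2 mutant saline replicate 3, D2 control cocaine replicate 1, or D2 control saline replicate 1 or 2.

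Between neuron types, 4 of these 18 genes were higher and 6 lower in D1 mutants, and 4 were higher and 4 lower in D1 controls. Over all genes, 16.6% were higher and 25.8% lower in mutants, and 11.9% and 17.1% in controls. In D1 neurons of both genotypes Vgf, a granin-like peptide precursor, was higher (0.84 in mutants, 0.55 in controls), as was Cadps2, a factor that primes dense-core vesicles for release (1.73 and 1.65). The convertase Pcsk5 was higher too (1.36 in mutants and 0.98 in controls). Scg5, a chaperone of the convertase Pcsk2, was lower in D1 neurons of both genotypes (-0.56 and -0.48), as was Ptprn2, a dense-core vesicle membrane protein (-0.59 and -0.46). Next by p were the convertase Furin in mutants (-0.44) and the granin Scg3 in controls (-0.29), both lower in D1 neurons. In controls the calls of Cadps2 (0.06), Pcsk5 (0.37) and Scg3 (-0.25) ended with the cortical marker covariate, and that of Cadps2 without D1 control saline replicate 2. With the mean of all probe sets Ptprn2 was -0.27 in controls. Of 9 tested precursors outside the members, Nts, the neurotensin precursor, was lower in D1 neurons of both genotypes (-2.76 in mutants, adjusted p = 2.48e-07, and -1.50 in controls, adjusted p = 0.00161). Adm (0.28) and Edn1 (0.25), precursors of adrenomedullin and endothelin 1, were higher in D1 mutants. None of the 9 was called for G9a loss in either neuron type by limma, against 12.2% of all genes in D2 and 4.22% in D1 neurons.

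Of 13 tested receptors of the members' peptides, 7 were higher and 3 lower in D1 mutants, and 5 were higher and 4 lower in D1 controls. The shares over all genes were 16.6% higher and 25.8% lower in mutants, and 11.9% and 17.1% in controls. In D1 neurons of both genotypes the somatostatin receptors Sstr4 (2.19 in both) and Sstr2 (2.34 in mutants, 1.76 in controls) were higher. So was Cckbr, a receptor of Cck (1.45 and 1.01), and Oprd1, a receptor of enkephalin among others in the list, was lower (-2.13 and -2.25). In the 6 with the smallest p were also Tacr3 (-1.81) and Sstr5 (0.83) in mutants, and Crhr1 (-0.58) and Npy2r (0.99) in controls. With the mean of all probe sets Sstr4 was 1.09 and Cckbr 0.57 in controls.

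With G9a loss 3 of these 13 receptors rose and 3 fell in D2 neurons, and 3 rose in D1 neurons. Over all genes, 8.41% rose and 3.82% fell in D2 neurons, and 3.1% rose in D1 neurons. Npy2r, a receptor of neuropeptide Y, rose by 0.66 in D2 neurons (adjusted p = 0.0072) and by 0.85 in D1 neurons (adjusted p = 0.00221), and its D2 call ended with the glial covariate (0.35, adjusted p = 0.399) or with D2 mutant cocaine replicate 4 counted as a control (adjusted p = 0.0506). Tacr3, a receptor of tachykinins, rose by 1.15 in D2 neurons (adjusted p = 7.92e-06) and was not called in D1 neurons, and the difference of the effects was 1.30 (adjusted p = 0.00248). Lhx8, the cholinergic interneuron marker, gave 1.11 in that comparison (adjusted p = 0.0122), and the part of cholinergic RNA in the value of Tacr3 was not tested. Npy1r, another receptor of neuropeptide Y, fell by 0.51 in D2 neurons (adjusted p = 0.0364) and rose by 0.71 in D1 neurons (adjusted p = 0.0129), with a difference of -1.22 (adjusted p = 0.0072). Its D2 call ended under 12 other settings, 6 of them the omission of D2 mutant cocaine replicate 1, D2 mutant saline replicate 1 or 3, D2 control cocaine replicate 1 or 4, or D2 control saline replicate 1. With D1 control saline replicate 1 left out, the D1 value was 0.59 and not called (adjusted p = 0.186). Oprk1, the dynorphin receptor, fell by 0.49 in D2 neurons (adjusted p = 0.000662). Cckbr fell by 0.30 (adjusted p = 0.0497), a call that ended under 26 of 41 other settings, with values from -0.22 to -0.32 in those settings. Crhr1, a receptor of Crh, rose by 0.35 in D2 neurons (adjusted p = 0.00452) and by 0.40 in D1 neurons (adjusted p = 0.00367), and its D2 call ended with the glial covariate. With the mean of all probe sets of a gene, the changes were smaller: 0.76 for Tacr3 and -0.30 for Oprk1 in D2 neurons, 0.25 for Crhr1 in D1 neurons, and 0.35 in D1 and -0.25 in D2 neurons for Npy1r.

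The third comparison asked what repeated cocaine did to the precursors. None of the 9 was called by limma in mutants or controls of either neuron type, and no member was called for a cocaine effect that differed with genotype or neuron type. Members with an unadjusted p under 0.05 numbered 1 in D1 mutants, 1 in D1 controls, 2 in D2 mutants and 0 in D2 controls, where 11.8%, 11.7%, 4.89% and 9.4% of all genes had one. Of all genes, 0.0915% in D1 mutants, 0.0666% in D1 controls, 0% in D2 mutants and 0.133% in D2 controls were called. With the genotypes averaged they numbered 4 in D1 neurons, where 11.4% of all genes had such a p and 0.749% were called, and 2 in D2 neurons, where 9.35% had one and 0.133% were called. Tested for a difference between genotypes in the effect of cocaine, 0% of all genes were called and none of the 9 had an unadjusted p under 0.05. Tested for a difference between neuron types, 0.025% of all genes were called, and among the members Tac1 alone had an unadjusted p under 0.05 in limma (0.30, adjusted p = 0.39).

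In D1 neurons Cartpt was the member nearest to a call. D1 mutants had 6.40, 5.98, 6.42 and 6.28 with cocaine, against 5.75, 5.90 and 6.23 with saline. D1 controls had 6.20, 6.16, 6.34 and 6.61 with cocaine, against 5.98 and 5.91 with saline. The cocaine arrays lay higher with overlap in mutants and without overlap in controls, around the floor, and the averaged value was 0.35 (95% interval 0.11 to 0.58, unadjusted p = 0.00551, adjusted p = 0.189). The 3' minus 5' values lay higher in D1 control cocaine (2.17 to 2.90) than in D1 control saline arrays (1.96 to 2.01). This was not so in D1 mutant cocaine (2.17 to 2.34) against D1 mutant saline arrays (2.19 to 2.68). Higher values of this RNA quality measure mean poorer RNA. Cartpt correlated with that measure over deviations from group means (r = 0.535, 27 arrays). With that measure as a covariate the averaged value was 0.26 (adjusted p = 0.255). Penk (0.21), Tac1 (0.21) and Scg2 (0.21) also had unadjusted p under 0.05 in D1 neurons, with adjusted p from 0.412 to 0.423.

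In D2 neurons Scg2 was 0.27 higher with cocaine when genotypes were averaged (95% interval 0.08 to 0.46, unadjusted p = 0.00792, adjusted p = 0.292). Its cocaine arrays lay above the saline arrays in mutants and in controls without overlap within a genotype, as given above. In mutants the closest arrays were at 9.95 and 9.91. The share of all genes without such overlap was not computed for cocaine. The 3' minus 5' values lay lower in D2 control cocaine (1.97 to 2.29) than in D2 control saline arrays (2.18 to 2.49), with overlap. They ran from 2.09 to 2.52 in D2 mutant cocaine against 2.09 to 2.36 in D2 mutant saline arrays. Scg2 correlated with that measure over deviations from group means (r = -0.523, 27 arrays), and with it as a covariate its value in D2 neurons was 0.23 (adjusted p = 0.266). Crh was 0.42 (unadjusted p = 0.0496, adjusted p = 0.532), and D2 mutant cocaine replicate 1 alone held 7.24, against 5.99, 5.73 and 5.83 on the other arrays of that group.

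Cck in D1 mutants was 10.16, 7.62, 9.10 and 8.61 with cocaine, against 10.76, 9.22 and 9.61 with saline (-0.99, 95% interval -1.90 to -0.08, adjusted p = 0.372). The cortical marker mean on the same arrays was 7.07, 5.66, 6.65 and 6.22 with cocaine, against 7.65, 6.53 and 6.97 with saline. Pdyn was 0.01 in D1 neurons with genotypes averaged (95% interval -0.31 to 0.34) and 0.06 in D2 neurons. Npy was 0.09 in D1 and -0.03 in D2 neurons, and Sst was -0.10 in D1 and 0.06 in D2 neurons, with adjusted p of 0.855 or more for both genes. Penk and Tac1 were -0.06 and -0.09 in D2 neurons. The cocaine effect in mutants minus that in controls ran from -1.34 (Cck) to 0.16 (Pdyn) in D1 neurons and from -0.16 (Cartpt) to 0.40 (Cck) in D2 neurons over the 9 members. The effect in D1 minus that in D2 neurons ran from -0.60 (Crh) to 0.30 (Tac1). Among 18 tested immediate early genes, which neurons induce within hours of stimulation, 11 rose in D1 and 3 in D2 neurons with genotypes averaged. Over all genes, 0.749% and 0.133% were called. None of the 18 was called for a difference between neuron types (median 0.19, against 0.06 over all genes, 0.025% of which were called). Within a genotype, 3 were called in D1 mutants, 2 in D1 controls, 0 in D2 mutants and 2 in D2 controls. With genotypes averaged, Nr4a3 was at 1.81 in D1 and 1.34 in D2 neurons and Arc at 1.15 and 1.02. The next by p in D1 neurons were Nptx2 (0.65), Btg2 (0.83), Fosb (1.30) and Fosl2 (1.4), and Fos was the third called in D2 neurons (2.38). Of the D1 calls, those of Nr4a3 and Btg2 alone remained without D1 control saline replicate 2, and those of Nr4a3, Arc and Nptx2 without D1 control saline replicate 1. The D2 call of Arc ended without D2 control saline replicate 1. With the mean of all probe sets Nr4a3 was 0.52 in D1 and 0.49 in D2 neurons, and Fosl2 was 0.82 in D1 neurons.

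**Figure D5:**
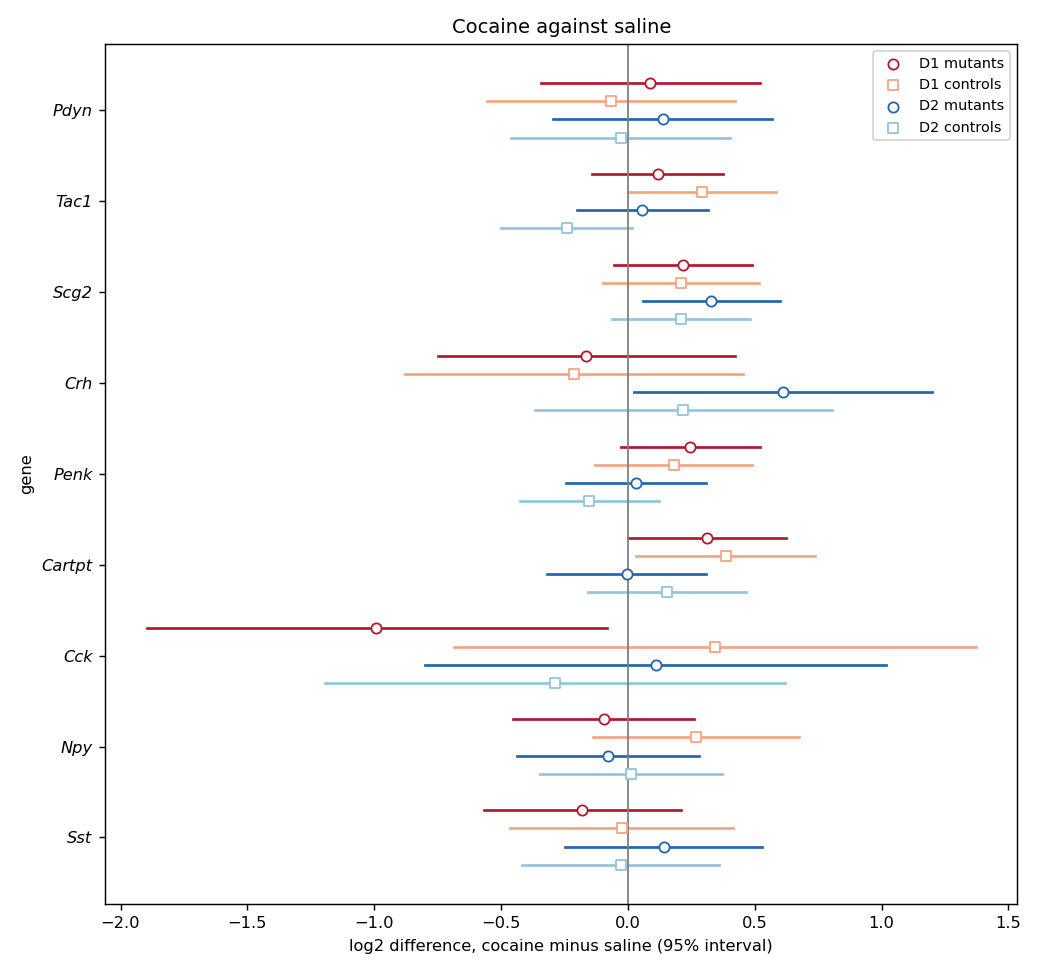
Log2 difference between cocaine and saline (x axis, cocaine minus saline) for each precursor (y axis) in D1 mutants, D1 controls, D2 mutants and D2 controls, with 95% intervals of the fit across all arrays. All points are open, since none was called. Scg2 lies between 0.21 and 0.33 in the 4 arms, and the intervals of Cck are the widest.

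Genes whose pattern over the 27 arrays was most like a member's were sought by Pearson correlation. Arrays of 1 neuron type share that difference, so these values are a description. Pdyn was most like Sfxn1 (0.984), Penk like Gpr6 (0.991), Tac1 like Slc35d3 (0.976), Scg2 like Adra2c (0.967), Crh like Sstr4 (0.955) and Cartpt like Pcdh17 (0.835). Cck was most like Dkk3 (0.978), Npy like Nfix (0.902) and Sst like Galnt9 (0.879). With group means taken out, Cck was still most like Dkk3 (0.969) and Npy like Nfix (0.856), whereas Scg2 was most like Mllt6 (0.859) and Pdyn like Atp8a2 (0.657). Among the members themselves these deviations correlated most for Cck with Npy (0.811) and Npy with Sst (0.707), followed by Cck with Sst (0.587) and Cartpt with Crh (0.581).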

How the data were processed

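The deposited table holds log2 values, made by the authors with RMA, the tool being Affymetrix's Expression Console 1.1 (both per the submitters' processing notes), for 45101 probe sets on 27 arrays (array medians 5.70 to 5.82). Of these probe sets 34945 carried 1 gene symbol in the platform annotation. A gene was tested when its probe set with the highest mean exceeded 6 in at least 3 arrays. All arrays were fitted by limma 3.58.1 under R 4.3.3, with every one of the 8 groups given its own mean. Contrasts weighted drugs or genotypes equally, p-values were adjusted by Benjamini-Hochberg over 12017 genes within a contrast, and 0.05 was the threshold for a call. The 9 members, the lists and the alternatives were chosen with earlier results of these data known. All members are named for neuron type, G9a loss and cocaine with genotypes averaged, and by their range for differences of effects. For cocaine within a genotype the text names those whose arrays it describes, and the plot shows all. From each pathway list the text names called genes only, at most 6 per contrast by smallest p. Gene lists hold genes with a single-symbol probe set.

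On simulated data for G9a loss in D2 neurons (12017 genes), the fit recovered 84% of changes of 0.5 and 99% of changes of 1 on the log2 scale, with 10 false calls (5.18%). The simulation used independent normal noise and changed 100 genes for each size. It therefore covers neither shifts shared by many genes nor the smaller groups of the cocaine comparisons. Replicates are mice, and no 2 arrays held the same values (smallest mean absolute difference 0.134). Alternatives covered the probe set, filter, normalization, variance trend, array weights, replicate number, covariates and left-out arrays. The source name of D2 mutant cocaine replicate 4 names a control, and an alternative counts it there. Motifs were searched in RefSeq's promoter windows. No genome was used.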

Additional observations from a re-analysis of the deposited data

Results flagged for a closer look

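Of 36 sets of 4 arrays (9 members in 4 groups) tested with Dixon's test, 4 had 1 array far from the other 3, and chance flags about 1 in 20 such sets. Crh on D1 control cocaine replicate 4 was 9.868, against 8.708 to 8.793 on the other 3 arrays of that group. Crh on D2 mutant cocaine replicate 1 was 7.242, against 5.734 to 5.99. Cck on D2 mutant cocaine replicate 4, whose source name conflicts with its title, was 8.005, against 8.266 to 8.293. Sst on D2 control cocaine replicate 3, 1 of the 3 arrays with Ttr above 9.5, was 7.171, against 6.866 to 6.89. The causes were not tested.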

How the results depend on the processing

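Over 41 alternative settings, 27 of them without 1 array, 13 of 21 called results of the members were called in every setting: Pdyn, Penk, Tac1, Scg2 and Crh between neuron types in both genotypes, Cartpt between neuron types in controls, and Scg2 for G9a loss in both neuron types. With the cortical marker covariate, which largely follows neuron type, 5 members were called between neuron types in mutants (9 without it). Cck turned to -0.28 in both genotypes (adjusted p = 0.264 in mutants and 0.279 in controls), and Nr4a2 to -0.78 in controls. For G9a loss in D1 neurons, 3 members were called with array weights (Pdyn and Crh added), 2 with the RNA quality covariate (Crh added) and 1 to 2 without 1 array: Penk without D1 mutant cocaine replicate 2 (adjusted p = 0.0217), Pdyn without D1 mutant saline replicate 3 (0.042), and Crh without D2 mutant cocaine replicate 1. For G9a loss in D2 neurons, 1 member instead of 2 was called with every probe set tested separately, cyclic loess, median centring, the replicate block, the array with the conflicting source name as a control, or the glial covariate, and 1 to 2 without 1 array. Cartpt was the call lost each time, at -0.33 with the replicate block (adjusted p = 0.0545). The replicate block changed no other count of members. Same-numbered arrays of different groups had deviations correlated from -0.395 to 0.469 (83 pairs, mean 0.02), and 8 of 27 arrays were closest to 1 with their own number. Counts between neuron types in controls ran from 6 to 9 without 1 array, and counts for cocaine and for differences of effects stayed at 0 in all settings. The causes were not tested. Pdyn and Crh in D2 neurons, and Cartpt in D1 neurons and in D2 mutants, lie near background, which limits their folds.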
